A study of Homo sapiens with 32 samples.

Results

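The longest uracil-enriched segments of cells that had received no drug are described here. In U-DNA-Seq, a uracil-DNA glycosylase that binds but no longer cuts, with a FLAG tag, pulls down uracil-containing DNA, which is sequenced beside the input DNA. The authors reported stretches where enriched over input coverage, as a log2 ratio, exceeded a threshold, and such a stretch is called a region. Regions were chosen by their length alone, at least 15 kb on chromosomes 1 to 22, and taken from 4 files, namely the merged files of 3 non-treated HCT116 conditions and the file of K562 cells. There were 5344 such regions among 457430 regions in all. They numbered 1261 of 115904 in WT, 1679 of 105887 in NT_UGI, 1406 of 110808 in NT_UGI_MMR and 998 of 124831 in K562. Regions that overlapped between files were joined, which gave 3038 loci with a total length of 64.3 Mb, or 2.33% of the known bases of these chromosomes.

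HCT116, a human colorectal carcinoma line, is deficient in mismatch repair (MMR). Its derivative with an additional chromosome 3 is MMR proficient. WT denotes HCT116 cells with neither drug nor transgene. NT_UGI denotes HCT116 cells that stably expressed UGI, an inhibitor of the glycosylase UNG, together with EGFP and were collected by cell sorting. NT_UGI_MMR denotes the MMR proficient variant with the same transgene. The drug-treated conditions were 5FdUR_UGI and RTX_UGI, and 5FdUR_UGI_MMR and RTX_UGI_MMR in the MMR proficient variant, each after 48 h of treatment. The nucleoside analog 5FdUR (fluorodeoxyuridine) was given at 20 µM, and RTX (raltitrexed), an antifolate, at 100 nM. All drug-treated cells also expressed UGI, so no drug-treated cells without the inhibitor were compared. Each of the 7 HCT116 conditions had 2 libraries. K562, a human chronic myelogenous leukaemia line, had 1 library without drug or transgene, so values of K562 carry no replicate error.

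Uracil enters DNA when DNA polymerases use dUTP in place of dTTP opposite adenine, or when cytosine is deaminated. Base excision repair begins when UNG removes the base, and UGI blocks this step. Both 5FdUR and RTX block thymidylate synthase, the enzyme that makes dTMP from dUMP, so that dUTP rises and dTTP falls. Per the authors, 5FdUR can also be built into DNA as fluorouracil, which the method detects as well as uracil. Regions after 5FdUR can thus reflect both bases. AT-rich and gene-poor DNA commonly forms constitutively silent, late-replicating chromatin.

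Stretches of 300 bases from the centres of 4 long loci are shown as examples of the sequence at these loci, and a stretch so short can differ from its whole locus in base composition. They are given 5′ to 3′ on the plus strand of GRCh38, with each CpG dinucleotide in capitals. The first is the centre of the longest NT_UGI_MMR region (chr5:27931751-27932050), the second that of the longest K562 region (chr5:105288401-105288700), and the other two lie in loci that had a long region in all 4 files, within introns of GRIK2 (chr6:101896701-101897000) and EYS (chr6:65340651-65340950). The first overlapped no annotated gene and the second an intron of a lncRNA gene. They held 1, 3, 1 and 1 CpG dinucleotides and had a GC content of 28.7%, 28.7%, 31.0% and 39.0%, where the whole loci had 32.7%, 31.9%, 31.0% and 30.4%.
NT_UGI_MMR longest: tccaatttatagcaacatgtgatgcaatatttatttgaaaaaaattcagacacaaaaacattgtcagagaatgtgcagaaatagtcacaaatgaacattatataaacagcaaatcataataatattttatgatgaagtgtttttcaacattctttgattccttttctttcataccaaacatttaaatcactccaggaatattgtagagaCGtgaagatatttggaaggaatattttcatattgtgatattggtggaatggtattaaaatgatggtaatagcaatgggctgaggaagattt
K562 longest: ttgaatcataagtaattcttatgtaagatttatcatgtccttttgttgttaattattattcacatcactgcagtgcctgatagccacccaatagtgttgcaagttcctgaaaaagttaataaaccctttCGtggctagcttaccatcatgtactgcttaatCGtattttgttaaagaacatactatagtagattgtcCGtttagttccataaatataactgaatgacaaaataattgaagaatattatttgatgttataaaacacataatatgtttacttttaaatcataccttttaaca
GRIK2 locus: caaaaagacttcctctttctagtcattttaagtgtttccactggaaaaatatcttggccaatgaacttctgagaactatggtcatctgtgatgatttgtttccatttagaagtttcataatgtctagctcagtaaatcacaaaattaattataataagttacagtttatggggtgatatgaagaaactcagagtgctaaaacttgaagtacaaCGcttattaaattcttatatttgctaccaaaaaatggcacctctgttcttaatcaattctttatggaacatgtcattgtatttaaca
EYS locus: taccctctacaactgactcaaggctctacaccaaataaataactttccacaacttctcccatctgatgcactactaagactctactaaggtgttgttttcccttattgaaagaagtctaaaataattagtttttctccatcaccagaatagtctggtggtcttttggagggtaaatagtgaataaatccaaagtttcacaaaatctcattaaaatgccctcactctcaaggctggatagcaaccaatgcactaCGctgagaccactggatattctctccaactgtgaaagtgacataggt

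A small class of loci had another sequence. At 16 loci with a GC content of 38% or more, a limit chosen after the values were seen, the same words of 10 bases recurred in all but 1. The centres of 3 of them are given 5′ to 3′ on the plus strand of GRCh38, from chr5:99213101-99213400, chr12:59536051-59536350 and chr9:105808701-105809000. They were chosen from all loci, after values were seen, by how far both 5FdUR_UGI_MMR libraries exceeded the highest other drug-treated library. Capitals mark the words AATATCACAG (CTGTGATATT on the other strand) and GGGTGTACAC (GTGTACACCC), which may overlap each other. Of all windows of 15 kb, 0.0965% held 10 or more copies of the first word.
chr5 repeat locus: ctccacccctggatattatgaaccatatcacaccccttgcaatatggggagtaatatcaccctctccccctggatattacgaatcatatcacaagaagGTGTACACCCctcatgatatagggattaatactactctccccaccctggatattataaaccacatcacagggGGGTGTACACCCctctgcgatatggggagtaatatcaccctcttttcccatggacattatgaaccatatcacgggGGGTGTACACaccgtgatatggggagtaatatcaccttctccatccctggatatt
chr12 repeat locus: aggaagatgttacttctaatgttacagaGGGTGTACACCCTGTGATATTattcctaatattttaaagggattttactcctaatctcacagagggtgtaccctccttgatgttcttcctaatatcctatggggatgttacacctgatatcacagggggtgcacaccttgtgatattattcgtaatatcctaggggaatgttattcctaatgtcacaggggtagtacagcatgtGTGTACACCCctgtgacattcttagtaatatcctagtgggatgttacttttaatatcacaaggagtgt
chr9 repeat locus: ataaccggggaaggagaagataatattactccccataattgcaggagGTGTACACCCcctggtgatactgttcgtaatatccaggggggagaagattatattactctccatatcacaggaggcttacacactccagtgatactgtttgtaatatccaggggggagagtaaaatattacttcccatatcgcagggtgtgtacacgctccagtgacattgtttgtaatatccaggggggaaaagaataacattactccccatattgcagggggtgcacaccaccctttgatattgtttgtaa

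Length and log2 value chose or accompany the choice of these regions, and both are given as descriptions. The median length was 18000 bp in WT, 18200 bp in NT_UGI, 18200 bp in NT_UGI_MMR and 18000 bp in K562. Long regions were few but held 8.02% of all region bases in WT, 10.5% in NT_UGI, 8.97% in NT_UGI_MMR and 6.32% in K562. Their median log2 ratio was 0.45 in WT, 0.53 in NT_UGI, 0.47 in NT_UGI_MMR and 0.56 in K562, where the medians of all regions were 0.31, 0.37, 0.33 and 0.38. The lowest log2 value of a whole file, which follows from the threshold of that file, was 0.27 in WT, 0.33 in NT_UGI, 0.29 in NT_UGI_MMR and 0.33 in K562, so log2 values and numbers of regions are not on 1 scale between files. Within each file the median log2 ratio was higher in each longer class of regions. In K562 it went from 0.34 in regions below 1 kb to 0.53 between 10 and 15 kb, 0.55 between 15 and 20 kb and 0.59 from 30 kb on.

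The limit of 15 kb cut through a continuous distribution. In K562, 31 regions were exactly 15000 bp long with a median log2 ratio of 0.54, and 24 regions fell just short at 14900 bp with 0.55. The corresponding pairs were 39 and 23 regions in WT, with 0.43 and 0.45, and 40 and 35 in NT_UGI, with 0.51 and 0.50. In NT_UGI_MMR 35 regions lay at the limit and 19 just below it, with 0.45 and 0.47.

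**Figure D1:**
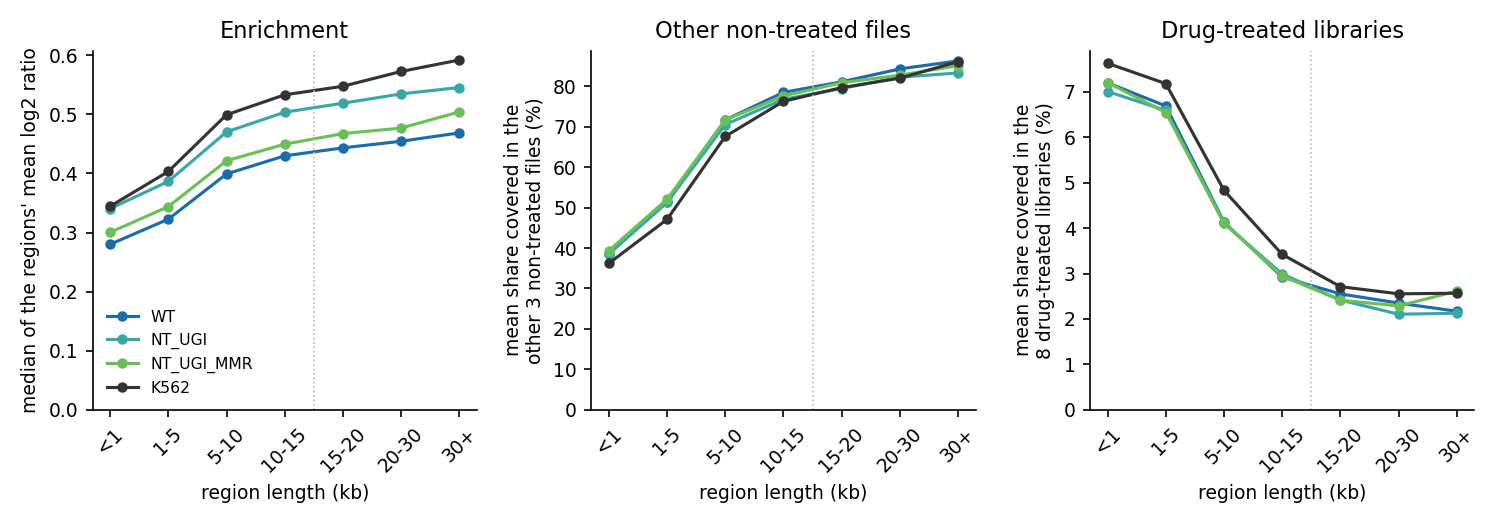
Regions of the 4 non-treated files by length class in kb on the horizontal axes, with the median of the regions' mean log2 ratios (left), the mean share of a region covered in the other 3 non-treated files in percent (middle) and the mean share covered over the 8 drug-treated libraries in percent (right). Each line is 1 file, and the dotted line marks 15 kb. In K562 the median log2 ratio went from 0.34 in the shortest class to 0.59 in the longest.

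Most loci had covered bases in all files, but few held a region of 15 kb in each. Only 213 of the 3038 loci (7.01%) held a region of 15 kb or more in all 4 files, a count that depended on the limit (581 at 12 kb, 41 at 20 kb and 340 with gaps of up to 500 bp joined), and 1679 loci (55.3%) held one in a single file. Of the latter, 542 were found in NT_UGI, 418 in NT_UGI_MMR, 372 in K562 and 347 in WT. Another 238 loci (7.83%) held a long region in the 3 HCT116 files but not in K562. Yet 3002 loci (98.8%) had covered bases in all 4 files, 2371 (78.0%) were at least 50% covered in each, and 69 (2.27%) at least 90%. For comparison, K562 regions below 1 kb had a mean cover of 35.6% to 37.5% in the 3 HCT116 files, and K562 regions of 30 kb or more 84.7% to 88.1%. At the 542 loci found in NT_UGI alone, the median covered share was 76.7% in WT, 77.1% in NT_UGI_MMR and 65.8% in K562. None of them was without a covered base in WT or NT_UGI_MMR, and 6 were so in K562. At the 372 loci found in K562 alone, the median covered share was 71.2% in WT, 72.8% in NT_UGI and 69.4% in NT_UGI_MMR, and 1 locus was uncovered in each of these files.

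Between the cell lines, and often between HCT116 files, long regions were broken into shorter ones. Between HCT116 files the share that met a long region ran from 42.6% of the long NT_UGI_MMR regions in WT to 57.3% of the long WT regions in NT_UGI. The cover lay in a median of 2 pieces for each of these pairs. This range overlapped that of the long K562 regions in HCT116 files. Within each HCT116 file, however, the share was higher for long regions of the other HCT116 files than for those of K562. The 998 long K562 regions were covered to a median of 83.7% by WT, 88.0% by NT_UGI and 82.9% by NT_UGI_MMR, in a median of 2 pieces each. A region of 15 kb or more overlapped 377 of them in WT (37.8%), 481 in NT_UGI (48.2%) and 405 in NT_UGI_MMR (40.6%). In the other direction, K562 covered the 1679 long NT_UGI regions to a median of 77.1%, in a median of 3 pieces, and 483 of them (28.8%) met a long K562 region. Loci with more files were longer and poorer in GC. The median length was 16900 bp with 1 file, 20750 bp with 2, 25050 bp with 3 and 29700 bp with 4, and the median GC content was 32.9%, 32.5%, 32.3% and 32.1%. A joined locus gets longer with each region added to it, so its length and its number of files are not independent.

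The longest region of WT, 62400 bp at chr8:112937501-112999900 within CSMD3, which encodes a large transmembrane protein with CUB and sushi domains, had a log2 ratio of 0.51. NT_UGI covered 95.7% of it, NT_UGI_MMR 95.7% and K562 80.1%. The longest of NT_UGI, 64500 bp at chr6:72219401-72283900, lay within RIMS1, a scaffold of the presynaptic active zone. Its cover was 81.4% in WT, 88.8% in NT_UGI_MMR and 85.7% in K562. No annotated gene overlapped the longest of NT_UGI_MMR, 55000 bp at chr5:27904401-27959400, of which WT covered 86.2%, NT_UGI 90% and K562 82.4%. The longest of K562, 50700 bp at chr5:105263201-105313900, overlapped the unnamed lncRNA ENSG00000251574 and was covered to 90.5% in WT, 91.7% in NT_UGI and 87.2% in NT_UGI_MMR. All 4 thus stood in every non-treated file, as shorter pieces outside their own. In the 8 drug-treated libraries the share was 0% to 0.481% at the first, 0% to 0.310% at the second, 0% to 1.64% on the NT_UGI_MMR one and 0% to 7.69% on the K562 one. In each case this was below every non-treated HCT116 library of the conditions not used to choose the region. No long K562 region lacked bases in all 3 HCT116 files, so the class of K562 regions without HCT116 cover was empty.

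Ranked by the shortest of its 4 lengths, the first locus shared by all files was chr5:99190401-99236100, where regions of 44200 bp in WT, 45200 bp in NT_UGI, 45500 bp in NT_UGI_MMR and 43800 bp in K562 nearly coincided. It was 1 of the repeat loci shown above and overlapped no gene. The second was chr6:101875001-101918700 within GRIK2, a subunit of kainate-type glutamate receptors, with lengths of 34900, 43600, 28000 and 28600 bp in the same order. The third, chr4:62900101-62933700, overlapped no gene and had 29300, 28000, 27800 and 27900 bp. The fourth, chr12:79454401-79483200, was another repeat locus, overlapped the lncRNA ENSG00000257894, and reached the highest log2 ratio of all long NT_UGI regions at 0.95. The fifth was chr6:65325301-65356300 within EYS, which encodes an extracellular matrix protein of photoreceptors, with 27600, 30900, 28800 and 28600 bp. The other five were chr2:193921901-193975000, chr1:190733001-190764400, which overlapped LINC01720, chr8:75953201-75985500, chr14:41912601-41940300 and chr8:111286001-111333900, and no protein-coding gene overlapped any of these. Their GC content ranged from 30.5% at the chromosome 14 locus to 32.3% at the first of the chromosome 8 loci.

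Drug treatment left these stretches almost without regions, whereas non-treated HCT116 cells covered them. The long K562 regions, chosen without any HCT116 library, allow this comparison over all 14 HCT116 libraries. In WT their mean covered share was 73.8% in replicate 1 and 72.9% in replicate 2, in NT_UGI 77.7% and 68.7%, and in NT_UGI_MMR 75.1% and 73.3%. After 5FdUR it was 0.258% and 4.02% in 5FdUR_UGI, and 1.79% and 8.17% in 5FdUR_UGI_MMR. After RTX it was 1.78% and 0.866% in RTX_UGI, and 3.57% and 0.853% in RTX_UGI_MMR. All 6 non-treated libraries thus lay far above all 8 drug-treated ones, with means of 73.6% ± 2.98 (SD, n = 6) and 2.66% ± 2.58 (SD, n = 8). The difference was 70.9 percentage points (two-sided exact permutation p = 0.000666, the smallest that 3003 splits can give, and 0.00266 after Benjamini-Hochberg adjustment over the 4 sets of long regions).

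Of all known bases, regions covered 11.3% to 11.6% in the non-treated and 17.6% to 19.7% in the drug-treated HCT116 libraries. These shares depend on the threshold set for each library. The lowest log2 value was 0.25 to 0.33 in the non-treated and 0.13 to 0.27 in the drug-treated libraries. At these thresholds, the drug-treated libraries had more covered DNA over all known bases and less at the long regions. Coverage was scaled within each library, so a region marks relative and not absolute uracil content. By dot blot, the authors measured more genomic uracil in drug-treated than in non-treated cells with UGI. A loss of regions is therefore not shown to be a loss of uracil. The 2 drug-treated libraries with the highest share at the long regions, 5FdUR_UGI replicate 2 and 5FdUR_UGI_MMR replicate 2, also had the lowest thresholds, with a lowest log2 value of 0.14 and 0.13 against 0.20 to 0.27 in the other drug-treated libraries. With only regions of a log2 value of 0.34 or more counted in every library, the means were 70.0% and 0.520%.

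**Figure D2:**
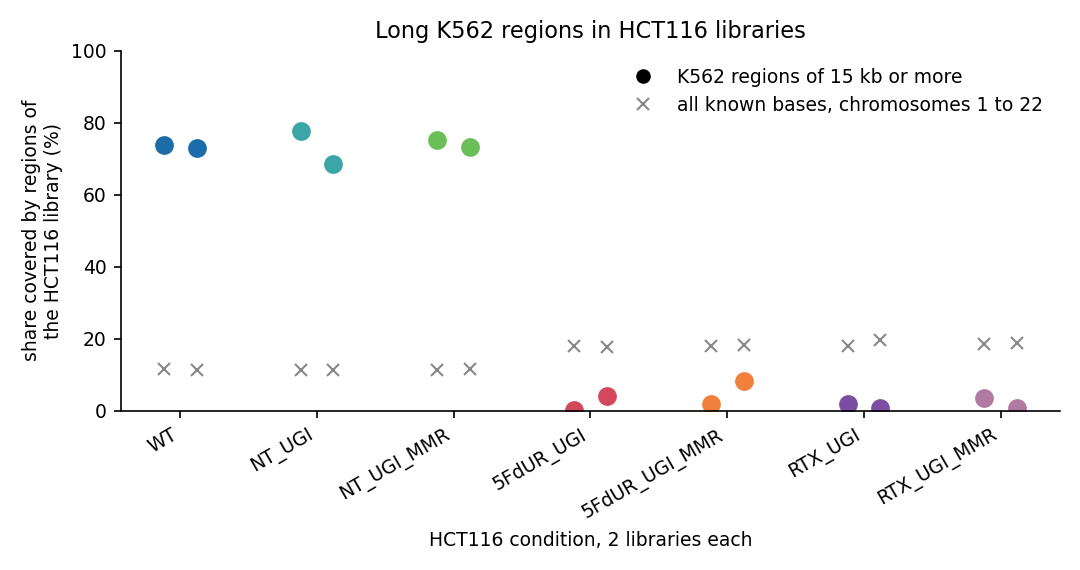
Mean share of the 998 long K562 regions covered by regions of each HCT116 library in percent (circles), with the share of all known bases covered by the same library (crosses), for 7 conditions with 2 libraries each. The 6 non-treated libraries sit between 68.7% and 77.7%, and the 8 drug-treated ones between 0.258% and 8.17%.

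The long HCT116 regions gave the same picture in libraries of the conditions that had not been used to choose them. The long WT regions were covered to 78.7% ± 4.03 (SD, n = 4) in the NT_UGI and NT_UGI_MMR libraries and to 2.48% ± 2.25 (SD, n = 8) in the drug-treated libraries. For the long NT_UGI regions the values were 77.8% ± 1.14 (SD, n = 4) and 2.31% ± 2.36 (SD, n = 8), and for those of NT_UGI_MMR 77.6% ± 4.11 (SD, n = 4) and 2.38% ± 2.20 (SD, n = 8). Each of the 3 differences had the smallest two-sided exact permutation p that 495 splits allow, 0.00404, which the adjustment left at 0.00404. These 3 sets and the K562 set overlap in DNA and share the 8 drug-treated libraries, so they are not independent of each other. The methods call the 2 libraries of a condition independent biological replicates. The permutation tests here exchanged libraries across conditions, so each library counted as 1 unit and those of 1 condition were not kept together. The p-values thus rest on the spread among libraries of different conditions as well as between replicates.

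Region by region, 911 of the 998 long K562 regions (91.3%) had a higher covered share in every non-treated library than in any drug-treated one, where the same was true of 19.8% of all K562 regions. For the remaining 87 the groups overlapped, and in none was every drug-treated library the higher. Among long WT regions 1203 of 1261 (95.4%) were separated in this way against a background of 26.8% of all WT regions, among those of NT_UGI 1618 of 1679 (96.4%) against 28.8%, and among those of NT_UGI_MMR 1352 of 1406 (96.2%) against 27.4%. The share was graded by length and did not begin at the limit. In K562 it was 5.54% below 1 kb, 55.7% between 5 and 10 kb, 80.9% between 10 and 15 kb, 89.1% between 15 and 20 kb, 96.2% between 20 and 30 kb and 95.6% from 30 kb on.

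The signal around a long K562 region in HCT116 cells formed a plateau on a raised floor. At the centre of the regions, 70.5% to 80.8% of positions were covered in the 6 non-treated libraries. At 50 kb to the left of the centre the share was 37.7% to 43.9%, and at 200 kb it was still 32.6% to 39.5%, above the 11.3% to 11.6% of all known bases. In drug-treated libraries it was 0.1% to 7.62% at the centre and 0.902% to 12.4% at 200 kb to the left. Long regions thus sat within broad neighbourhoods that were rich in regions of non-treated cells and poor in regions of drug-treated cells.

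**Figure D3:**
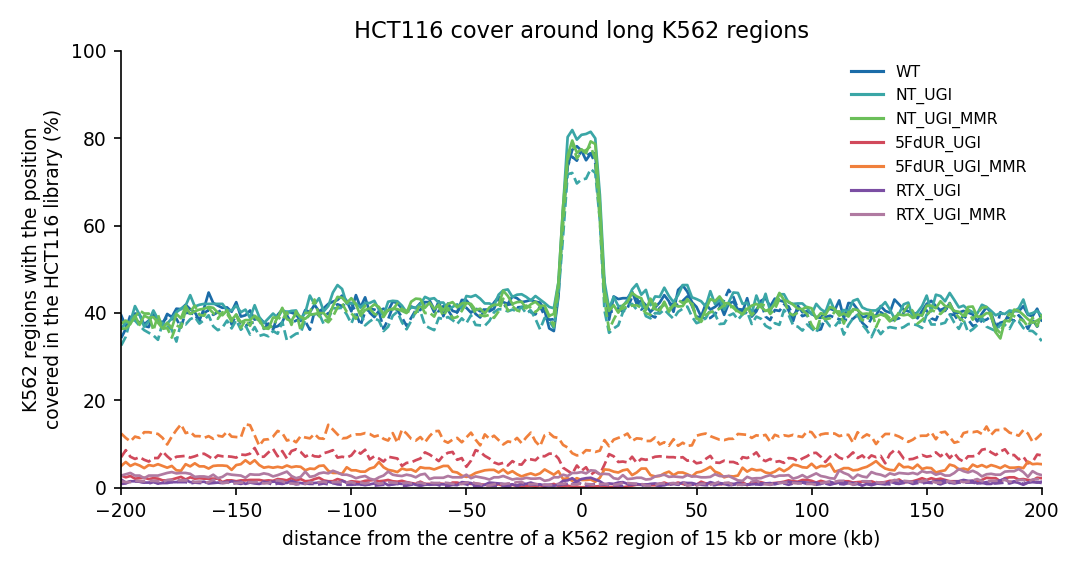
Share of the 998 long K562 regions with a position covered in an HCT116 library in percent, against the distance of that position from the region's centre in kb, with 1 line for each of the 14 libraries (solid for replicate 1, dashed for replicate 2). The non-treated lines rise to between 70.5% and 80.8% at the centre, where the drug-treated lines stay at or below 7.62%.

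Over the 3038 joined loci, the mean covered share after 5FdUR was 0.222%, 4.14%, 1.34% and 7.45% in the 4 libraries, and after RTX 1.61%, 0.922%, 3.10% and 1.03%. The values of the drugs overlapped, and the difference of 1.62 percentage points did not pass the test (two-sided exact permutation p = 0.429, adjusted p = 0.486 over 2 tests). The direction turned when only regions with a log2 value of 0.34 or more were counted in every library, with means of 0.0953% after 5FdUR and 0.909% after RTX (exact permutation p = 0.0286, unadjusted). The MMR deficient and MMR proficient drug-treated libraries had means of 1.72% ± 1.71 (SD, n = 4) and 3.23% ± 2.96 (SD, n = 4), and their difference did not pass it either (exact permutation p = 0.486, adjusted p = 0.486). With 70 splits the smallest p was 0.0286. Both differences rested on 5FdUR_UGI_MMR replicate 2, without which they were 0.235 and -0.101 percentage points. By count, 2334 loci (76.8%) had no covered base in any of the 4 RTX libraries and 1031 (33.9%) had none in any of the 4 5FdUR libraries, of which 2 had the low thresholds given above. In all, 914 loci (30.1%) had no covered base in any drug-treated library. The same counts were not made for all non-treated regions or for windows of like length and GC content. Among all windows of 15 kb, those in the GC class that begins at 32% had a mean cover of 2.38% over the drug-treated libraries. Of these windows, 55.6% touched a long locus. The counts are therefore not shown to be particular to the long loci.

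A few loci went against the pattern, and the following were chosen after their values were seen. At least 50% of the locus was covered in all 4 RTX libraries at 9 loci, and in all 4 5FdUR libraries at 1. A locus within C2orf88, chr2:189899401-189918600, held a long region in all 4 non-treated files and was covered to 61.5% to 96.9% in the 6 non-treated libraries. Its cover after RTX was 92.2%, 89.6%, 79.2% and 100%, but 0% in each 5FdUR library. A locus within RALGAPA1, which encodes a subunit of a GTPase-activating complex for Ral proteins, had 86.9% to 100% after RTX and 0% to 6.25% after 5FdUR (chr14:35543501-35559500). Another, chr12:76371301-76389600 within OSBPL8, a lipid transfer protein of the endoplasmic reticulum, had 77.0% to 100% after RTX and 0% after 5FdUR. These 3 were chosen among all 3038 loci for the largest lead of the lowest RTX over the highest 5FdUR library. Their separation thus follows from the choice. The other RTX-covered loci lay at ZNF148, LEKR1, TMEM225B, BBIP1 with PDCD4, PGM2L1, and a stretch of chromosome 16 with 7 pseudogenes of mitochondrial genes, such as MTCYBP33 and MTND5P33. Of these 9 loci, 8 had a GC content below 38%, as had 3022 of all 3038 loci, and 8 overlapped a protein-coding gene, where 30.9% of all loci did. The TMEM225B and chromosome 16 loci held 62.1 and 43.3 copies of the word AATATCACAG per 10 kb and are among the repeat loci described below.

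The long loci lay in the most AT-rich DNA. Their median GC content was 32.6% with quartiles of 32.1% and 33.2%, against 41.0% over all known bases, and their median CpG density was 4.79 per kb against 10.1 per kb. Long K562 regions had a median GC content of 32.5% and all K562 regions 34.1%, so the long ones were the AT-rich end of regions that were already AT-rich. The genome was divided into windows of 15 kb to read this from the side of the sequence. Of windows with a GC content of 30 to 31%, 88.0% touched a long locus, and of those with 32 to 33%, 55.6% did. The share was 6.72% at 35 to 36% and 0.288% at 39 to 40%. Cover in the 6 non-treated HCT116 libraries followed the same course, from 84.1% through 67.7% and 29.6% to 4.21% in these classes, and in K562 from 78.4% through 64.6% and 29.4% to 4.15%. In the drug-treated libraries the mean cover ran the other way, with 2.76%, 2.38%, 5.26% and 13.4%, and it reached 40.9% at 49 to 50%.

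**Figure D4:**
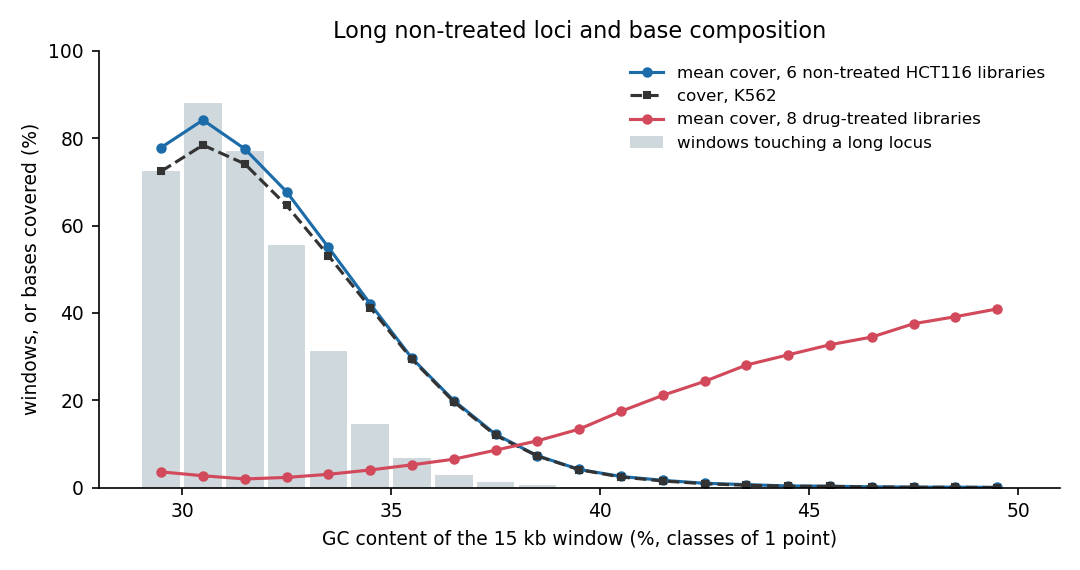
Windows of 15 kb on chromosomes 1 to 22 by GC content in classes of 1 percentage point from 29% to 50%. Bars give the percentage of windows that touch a long locus, and lines the mean percentage of window bases covered in the 6 non-treated HCT116 libraries, in K562 and in the 8 drug-treated libraries. At 30 to 31% GC 88.0% of windows touch a locus, and the non-treated and drug-treated lines cross between 37% and 39% GC.

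By chromosome, the density of loci ran from 3.18 per Mb of known bases on chromosome 13, 2.30 on chromosome 4 and 1.62 on chromosome 21 to 0.0782 on chromosome 20, 0.0513 on chromosome 19 and 0.0511 on chromosome 22. Chromosomes 13 and 4 had the lowest GC contents of all (38.6% and 38.2%), and chromosomes 19 and 22 were among the highest (47.9% and 47.0%). Loci on chromosome 13 took up 7.33% of its bases. The chromosomal shares of long regions differed between the cell lines. Chromosome 13 held 12.8% of the long regions of WT, 11.97% in NT_UGI and 12.1% in NT_UGI_MMR, but 7.11% in K562, and chromosome 8 held 9.44%, 9.29%, 9.39% and 5.41%. All regions of any length were spread more evenly, with 4.95% to 5.25% on chromosome 13 and 5.82% to 6.06% on chromosome 8 in the 4 files. Chromosome 7, in contrast, held 5.31%, 4.94%, 4.77% and 9.72%, with 6.23% to 6.55% of all regions. Chromosome 3, of which the MMR proficient variant has an added copy, held 10.5% of the long NT_UGI_MMR regions, against 8.17% in WT and 8.87% in NT_UGI. Of all regions it held 8.83%, 8.52% and 8.36% in the same order. Regions were not assigned to the added copy. No test of these differences was made, and copy number was not tested.

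Loci were clustered. The median gap between neighbouring loci was 80.9 kb, where an even spread would give 1 locus in 907 kb of known bases. Of 2765 windows of 1 Mb, 772 (27.9%) held the centre of a locus, and 235 windows with 5 or more held 2056 loci (67.7%). The 5 fullest windows were at chr4:115000001-116000000, with 20 loci around NDST4, a heparan sulfate sulfotransferase gene; chr13:87000001-88000000, with 19 loci and the synaptic adhesion gene SLITRK5; chr3:83000001-84000000, with 18 loci and no protein-coding gene; and the neighbours chr8:113000001-114000000 and chr8:114000001-115000000, with 18 each. In these 5 windows, 34.8% to 45.8% of the bases lay in long loci.

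K562 lacked regions in parts of the short arm of chromosome 9. Of 451 loci with a long region in all 3 HCT116 files, 4 had no covered base in K562, and all 4 were on this arm. They were chr9:25131801-25164800, chr9:30639801-30668800, chr9:29587401-29612900 and chr9:25079001-25101800, the last of which was named after its value was seen. No protein-coding gene overlapped them, and their cover in the 6 non-treated HCT116 libraries was 54.1% to 99.7%. The next lowest share in K562 among the 451 loci was 15.6%. No K562 region of any length lay in chr9:20751601-26640800 (5.89 Mb) or in chr9:28553301-31622300 (3.07 Mb), where WT had 548 and 401 regions. Of the 34 loci without a covered base in K562, 31 lay in these stretches and 3 on other chromosomes. K562 is known to have lost DNA of the short arm of chromosome 9 around CDKN2A. Whether these stretches were present in the sequenced cells was not tested, since the input reads were not used here.

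The repeat found at the GC-rich loci set them apart. The word AATATCACAG occurred 1898 times on either strand in the 16 loci with a GC content of 38% or more, at a median of 40.8 per 10 kb, where the mean of all known bases was 0.0626 per 10 kb. The word GGGTGTACAC occurred 1636 times there, at a median of 36.4 per 10 kb against 0.0270. The exception was chr11:114601201-114625800, which held neither word. Among the 3022 other loci, 87.2% held no copy of the first word and 98.7% none of the second. Counting all loci with at least 5 copies of the first word per 10 kb gave 19 loci, 15 of them with 38% GC or more. Of these 19, 10 held a long region in all 4 files (52.6%), against 203 of the other 3019 (6.72%). They were also among the strongest, with a median log2 ratio of 0.64 against 0.52 for the other long regions in NT_UGI and 0.68 against 0.56 in K562. These words were taken from the loci themselves and counted on GRCh38, and the mapping of reads to such repeats, where reads of mapping quality 0 had been removed, was not tested.

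These 19 repeat loci had more cover in the drug-treated cells than the other loci, from which they also differed in GC content, with medians of 40.9% and 32.6%. All windows of 15 kb with 40 to 41% and 41 to 42% GC had a mean cover of 17.5% and 21.2% over the drug-treated libraries, close to the repeat loci in 5FdUR_UGI and after RTX, but only 2.60% and 1.71% in the non-treated ones. Their mean covered share in the non-treated HCT116 libraries was 84.3% to 93.9%, and in K562 84.3%. After 5FdUR it was 16.3% and 19.2% in the MMR deficient line, and 55.2% and 33.2% in the MMR proficient line. The medians were 1.53%, 6.14%, 61.2% and 24.5%, and 3, 2, 10 and 5 of the 19 loci were at least 50% covered, so a few loci carried the means of the deficient line. The other 3019 loci had 0.121%, 4.05%, 1.004% and 7.29% in the same libraries. After RTX the repeat loci had 23.9% and 19.8% in the MMR deficient line and 16.4% and 12.7% in the MMR proficient line, and the median over the 19 loci was 0% in each RTX library. No test of MMR status within a drug was made. The loci whose centres are shown above were chosen for a lead of 5FdUR_UGI_MMR over the other drug-treated libraries. Their contrast thus follows from the choice. At the chromosome 5 locus, cover was 91.9% and 64.3% in 5FdUR_UGI_MMR but 1.53% and 6.56% in 5FdUR_UGI, and 0% to 12.04% after RTX. At the chromosome 12 locus it was 83.9% and 94.0%, 9.63% and 32.6%, and 0% to 1.38% in the same order, and at the chromosome 9 locus 44.1% and 41.5%, then 0% in each of the other 6 drug-treated libraries. A locus on chromosome 19 that overlapped the pseudogene PLEKHA3P1, chr19:41509201-41526600 with 43.7% GC, had the highest minimum over the 8 drug-treated libraries, with 25.9% to 94.8%. The locus chr7:7057601-7077600 at MIR3683 was the one covered to at least 50% in all 4 5FdUR libraries, with 53.0% to 99.0%.

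The repeat was not a mark of long regions as such. Of 191656 windows of 15 kb, 185 (0.0965%) held 10 or more copies of the first word, on 21 chromosomes and with a median GC content of 42.5%. Of these windows, 43 (23.2%) touched a long locus, where 3.67% of all windows did. The word was taken from the GC-rich long loci, so that excess follows at least in part from the choice of the word. Regions covered 33.3% to 38.3% of the bases in these windows in the non-treated HCT116 libraries and 32.7% in K562, against 11.2% to 11.6% of all known bases. Outside the long loci, the other 142 of these windows were covered to 21.6% to 25.8% in the non-treated and to 33.4% to 47.0% in the drug-treated HCT116 libraries.

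Long loci were poor in gene starts and exons. Of their bases, 29.4% lay in protein-coding genes and 1.08% in exons of these, against 45.3% and 2.90% of all known bases. They held 52 starts of protein-coding genes, or 0.809 per Mb against 6.93 per Mb. The share in lncRNA genes was close to that of all known bases, 19.9% against 19.0%. Of the 3038 loci, 940 (30.9%) overlapped a protein-coding gene, 559 (18.4%) an exon of one, and 1464 (48.2%) neither a protein-coding nor a lncRNA gene.

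Among 19111 protein-coding genes, 470 (2.46%) overlapped a locus, and length went with it. The share was 0.865% of genes below 100 kb, 32.04% of the 309 genes of 500 kb or more and 52.2% of the 67 genes of 1 Mb or more. The gene with most bases in loci was CSMD3, with 22 loci over 47.4% of its length and a cover of 66.8% in WT, 71.9% in NT_UGI, 67.6% in NT_UGI_MMR and 53.2% in K562. PCDH15, a cadherin of the tip links of hair cells, followed with 19 loci over 24.4% of the gene, and CADM2, a synaptic cell adhesion protein, with 17 loci over 39.4%. EYS had 17 loci, GRIK2 had 11 and LRP1B, a large receptor of the LDL receptor family, had 12. MGAT4C had 10 and CCSER1 had 9. FSTL5, a secreted follistatin-like protein, had 12 loci and differed between the lines, as regions covered 63.9% of it in WT, 66.1% in NT_UGI and 59.7% in NT_UGI_MMR, but 18.1% in K562.

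Gene lists are described by counts beside the share of all protein-coding genes. It was 2.46% over all lengths, 0.865% below 100 kb, 7.38% from 100 to 500 kb and 32.04% from 500 kb on. Of 13 type II cadherins, 5 overlapped a locus, and all 5 were of 100 kb or longer. CDH18 held 8 loci, CDH12 held 6, CDH9 held 4, and the shorter CDH19 held 4 over 78.4% of its length. Of 10 non-clustered protocadherins, 5 had a locus. PCDH17 was in loci over 81.5% of its length and PCDH10 over 67.9%, although both are shorter than 100 kb. Of 33 synaptic adhesion genes, with a median length of 659038 bp, 13 had a locus (39.4%), most bases in CNTN5 with 10 loci, LRRTM4 with 9, and CNTNAP2 and NEGR1 with 7 each. Among 17 ionotropic glutamate receptors 5 had one, such as GRIK2 with 11 loci.

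Of 16 genes of common fragile sites, which are large genes prone to breaks under replication stress, 9 had a locus (56.3%), such as LRP1B with 12, NBEA with 7 and NAALADL2 with 8. Their median length was 1442271 bp, and of all genes of 1 Mb or more 52.2% had a locus. NBEA was covered to 43.9%, 47.7% and 48.7% in the HCT116 files and to 25.7% in K562. Of 399 olfactory receptor genes, which are short and clustered, 8 overlapped a locus (2.01%), such as OR4N2 and OR52N4. Only 4 of the receptor genes were of 100 kb or longer, 1 of them with a locus. Of all protein-coding genes below 100 kb, 0.865% had a locus. No locus overlapped any of 11 genes of uracil repair and dUTP metabolism, 8 mismatch repair genes, 69 replication-dependent histone genes or 77 genes of cytosolic ribosomal proteins. The median gene lengths of these 4 lists were 23053, 75608, 503 and 5548 bp, against 27877 bp over all protein-coding genes. All but 3 mismatch repair genes were below 100 kb, where 0.865% of protein-coding genes had a locus. Beside that share, empty counts in lists of this size are no result about these genes.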

How the data were processed

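The authors aligned reads to GRCh38 with BWA 0.7.17-r1194, processed them with SAMtools 1.9-50 and Picard, removed reads of mapping quality 0 and blacklisted segments, and computed the ratio of enriched to input coverage with deepTools 3.2.1 in bins of 100 bp with smoothing over 5000 bp, per the labels and the methods. The authors deposited regions above a threshold set for each file, with a log2 value that has no heading and was read as the region's mean log2 ratio. The region lists hold no read depth. No counting error can therefore be given, and precision is measured by the spread between libraries. The 3 merged HCT116 files come from pooled replicates and carry no error.

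Here, chromosomes 1 to 22 were analysed. The covered share is the percentage of a stretch's bases that lie in regions of a library. All region ends lay on a grid of 100 bp. Long regions of the 4 files were joined into loci where they overlapped. The long K562 regions were compared between 6 non-treated and 8 drug-treated HCT116 libraries, and those of each HCT116 condition over the libraries of the other conditions. Differences of means were tested with two-sided exact permutation tests at 0.05, with Benjamini-Hochberg adjustment over 4 tests of drug and over 2 tests of drug kind and MMR status. Genes are from GENCODE release 44 on GRCh38, and sequence from the same build. All region ends lay within its chromosomes, and the lowest share of known bases in a locus was 99.9%. Scripts were tested on simulated data and used Python 3.11.15, NumPy 2.4.6, SciPy 1.17.1 and matplotlib 3.10.9.

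The named loci are the longest region of each file, the 10 loci shared by all files with the greatest shortest length, the 3 longest K562 regions without HCT116 cover (none existed) and the 3 HCT116 loci with the lowest share in K562. Named genes have the most bases in loci, overlap these loci or belong to a list. The members, the gene lists and the tests were chosen with earlier results of these data known. The GC limit, the repeat words and the loci covered after drug were chosen after their values were seen. The merged files of drug-treated conditions were not used here. Some genes that the rule names are not reported here.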

Additional observations from a re-analysis of the deposited data

Results flagged for a closer look

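The covered share was examined in 60 groups of libraries, which were the groups of each test and those at the named loci. In 13 of them, all at named loci, 1 library was flagged as apart from its group. The rule set the gap between the outermost value and its neighbour against the range of the group. Where the other libraries had no covered base, any covered base gave a flag, however small the share. The number of flags therefore cannot be set against a chance rate, and the groups share libraries.

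In the drug-treated group, 5FdUR_UGI replicate 2 stood above the other 7 libraries at chr6:101875001-101918700 in GRIK2 with 9.15%, at chr6:65325301-65356300 in EYS with 13.5%, at chr2:193921901-193975000 with 11.3%, at chr9:30639801-30668800 with 2.41% and at chr9:29587401-29612900 with 5.49%. The library 5FdUR_UGI_MMR replicate 2 stood above the others at chr6:72219401-72283900 in RIMS1 with 0.310%, at chr8:75953201-75985500 with 26.3% and at chr8:111286001-111333900 with 12.5%. These 2 libraries had the lowest log2 thresholds of all, 0.14 and 0.13, and the part of the threshold was not tested locus by locus. RTX_UGI replicate 1 stood above the others at chr8:112937501-112999900 in CSMD3 with 0.481% and at the repeat locus chr12:79454401-79483200 with 45.8%, and RTX_UGI replicate 2 did so at chr4:62900101-62933700 with 2.08%.

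In the non-treated group, NT_UGI replicate 2 was the highest of 6 at chr12:79454401-79483200 with 98.6%, and WT replicate 1 was the lowest at chr12:59525301-59547100 with 78.9%.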

How the results depend on the processing

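The 4 differences between non-treated and drug-treated libraries kept their direction and passed the test under every alternative run, which were limits of 12 and 20 kb, a minimum log2 of 0.45 for long regions, joined gaps of up to 500 bp, other measures of cover, a log2 of 0.34 or more in every library, either drug alone, and leaving out chromosomes 8 and 18 or the 5FdUR_UGI_MMR libraries. With 1 library left out at a time, the difference was 70.1 to 71.9 percentage points for long K562 regions, 74.7 to 78.0 for WT, 75.0025 to 76.2 for NT_UGI and 73.5 to 76.9 for NT_UGI_MMR. The share of long K562 regions that were higher in every non-treated library was then 91.3% to 93.8%. The difference of 5FdUR minus RTX was 0.235 to 2.64 percentage points and that of MMR deficient minus proficient libraries -2.31 to -0.101, and none of these passed. The smallest values came without 5FdUR_UGI_MMR replicate 2, at 0.235 and -0.101. At a log2 of 0.34 or more in every library, 5FdUR minus RTX became -0.813 (two-sided exact permutation p = 0.0286, the smallest possible). The number of loci shared by all 4 files depended on the limit, with 581 at 12 kb, 41 at 20 kb and 340 with gaps joined, and was 198 when an overlap of 50% of the shorter region was required.

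Replicate numbers were shared between conditions, but libraries with the same number did not deviate together, with r of -0.0944 to 0.25 over 21 pairs of conditions and 2 above 0.1, so the numbers were not taken as a pairing. With the number as a replicate block the differences stay the same by construction, 70.9 percentage points for long K562 regions, 76.2 for WT, 75.5 for NT_UGI, 75.2 for NT_UGI_MMR, 1.62 for 5FdUR minus RTX and -1.51 for MMR status. Exact permutation p was then 0.00163 for K562, 0.00889 for WT, NT_UGI and NT_UGI_MMR, 0.389 for the drugs and 0.5 for MMR status, and no call changed.

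Regions are listed only above a threshold that differs between files, and neither depth nor signal below it is recorded, so a stretch without a region is not shown to lack uracil. K562 had 1 library.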
